A study of Mus musculus with 12 samples.

Results

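The genes described here build and serve the primary cilium, the single non-motile antenna that most cells, chondrocytes included, carry on their surface. The set held 38 genes chosen by name: subunits of the intraflagellar transport complexes and their motors, the BBSome, basal body and transition zone proteins, and a few receptors and enzymes of the ciliary membrane. A gene was read through a probe set annotated with its symbol alone, and where several qualified the one with the highest mean log2 signal over the 12 arrays was used. In this way 36 of the 38 members were found among 18193 genes; the probe sets of Pkd2 and Arl13b are unnamed here. A member was tested if its mean signal was at least 50 in at least 1 zone, which 35 members passed, as did 11808 genes in all. Tmem67, which encodes the transition zone protein meckelin, stayed under that limit, with mean signals of 15.1, 13.1 and 10.6 in zones I, II and III.

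The tibiae came from 4 litters of untreated CD1 mouse embryos at embryonic day 15.5 and were cut by hand into 3 zones. Zone I was the segment at the extremity, with resting and dividing chondrocytes. The adjoining zone II was rich in cells entering or undergoing hypertrophy, and zone III, the innermost, added mineralized tissue to the latest hypertrophic cells. Segments of a zone were pooled over the animals of a litter and hybridized to 4 arrays per zone, lettered A to D. The zones differ in position along the bone and in cell type at once, and no gene was manipulated.

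A cilium grows from a basal body and has no ribosomes, so its proteins are brought in along the axoneme by intraflagellar transport (IFT). Trains of IFT-B are pulled to the tip by a heterotrimeric kinesin and trains of IFT-A back to the base by a ciliary dynein, while the BBSome carries membrane proteins out and the transition zone acts as a gate. In the growth plate the cilium is best known as the place where cells read Indian hedgehog, and mutations in many of these genes cause skeletal dysplasias with short ribs, short limbs or extra digits.

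Factors of the Rfx family bind a sequence called the X-box, found upstream of many ciliary genes, and the promoters of the members were searched for it. The search used RefSeq promoter windows of the GRCm38.p6 build, from 250 bases before a gene's start to 50 after it, and 34 members had a window. The motif searched was GTTNCC and then GGNAAC with a gap of 0 to 3 bases, which reads the same on both strands. It was present for 3 of the 34 members (8.82%) and for 253 of 27025 genes (0.936%). A single perfect arm, GTTGCC or GGCAAC, which partly overlaps the longer motif, was present for 14 members (41.2%) and for 14.1% of all genes. The 3 members with both arms were Bbs7, Ift57 and Mks1. Their matches are shown in capitals, with up to 30 bases on either side and written on the strand of the gene. The Bbs7 stretch is chr3:36613467-36613540 on the minus strand, with the match starting 121 bases before the gene's start, that of Ift57 is chr16:49699204-49699276 on the plus strand, starting 60 bases before, and that of Mks1 is chr11:87853161-87853214 on the plus strand, starting 24 bases before.
Bbs7: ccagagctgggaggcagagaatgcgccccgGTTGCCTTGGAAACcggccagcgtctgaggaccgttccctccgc
Ift57: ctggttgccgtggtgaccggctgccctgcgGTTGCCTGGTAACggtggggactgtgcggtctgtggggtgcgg
Mks1: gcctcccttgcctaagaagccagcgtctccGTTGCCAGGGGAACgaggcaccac
A match describes these letters only and does not show that a factor binds there.

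The arrays had been scaled to a common 2% trimmed mean of 150.0, with 18407 to 21170 probe sets at a signal of 50 or more. Hybridization was done in 3 fluidics runs on a single day (4 arrays each), and arrays from zones I, II and III were present in each run. The ratio of 3' to 5' signal for Gapdh, a sign of RNA length, was higher in zone III (1.98 to 2.28) than in the earlier zones (1.25 to 1.76), while the ratio for actin was lower there (1.70 to 2.02 against 2.09 to 3.23). The part of this difference in the values given here was not tested. Markers went with the labelled tissues only in part. Early cartilage genes were present in zones I and II. Their 8 markers summed higher in zone II (22609 to 24809) than in zone I (15801 to 19724). Collagen X (Col10a1) had mean signals of 5.81, 2560 and 2351 in zones I, II and III. The osteoclast gene Acp5 had 112, 166 and 2362. The osteoblast gene Ibsp had 54.3, 3362 and 3380, and so was already at its zone III level in zone II.

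Most ciliary genes that differed between zones I and III were lower in zone III. Between these zones 21 of the 35 tested members were lower and 1, Ift57, was higher at an adjusted p under 0.05, while 13 did not pass; of all tested genes 21.7% were lower and 21.6% higher. The lower members included the IFT-B subunits Ift88, Ift27, Ift81, Ift80 and Ift74, the IFT-A subunit Wdr35 and 6 of 7 BBSome subunits. The step from zone I to zone II held 17 lower and 3 higher members (Ift20, Ift57 and Ift43), against 25.4% lower and 16% higher of all genes. The step from zone II to zone III held 9 lower and 5 higher members (Ift122, Dync2h1, Ofd1, Gpr161 and Inpp5e). Of all genes 22.7% were lower and 30.8% higher at that step. Gpr161, counted in both steps, entered the test through zone I alone, where it was high. In whole-tissue RNA, fewer cells of a type and less RNA per cell cannot be told apart.

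**Figure D1:**
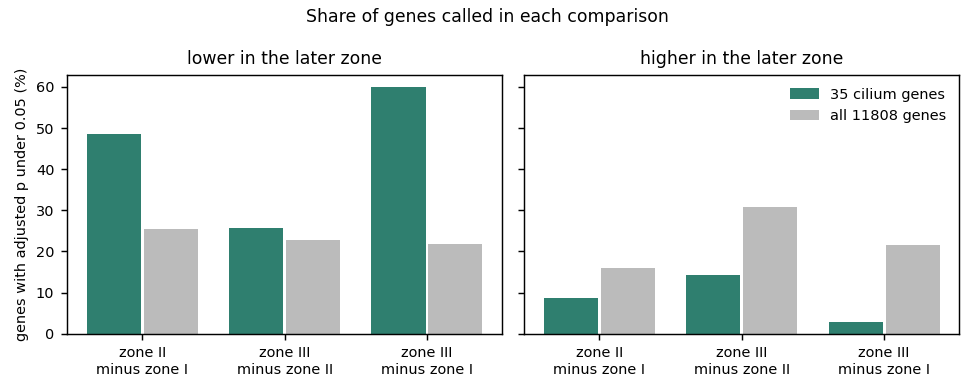
Bars give the percentage of the 35 tested cilium genes and of all 11808 tested genes that were lower (left) or higher (right) in the later zone at an adjusted p under 0.05, for each pair of zones. The members' bars for lower genes stand at 48.6%, 25.7% and 60% against 25.4%, 22.7% and 21.7% of all genes, and the higher calls from zone II to zone III went from 5 to 13 members when arrays were centred on ribosomal protein genes.

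The differences were summarised in size as well. The median log2 difference of the members was -0.45 for zone II minus zone I, -0.09 for zone III minus zone II and -0.55 for zone III minus zone I, beside medians of -0.09, 0.08 and -0.01 over all tested genes. With at least 1.5-fold asked as well, 16 members were lower and 0 higher in zone III than in zone I, against 14.8% and 16.5% of all genes. The same rule gave 17 lower and 1 higher from zone I to zone II (all genes 19% and 8.49%) and 6 lower and 5 higher from zone II to zone III (all genes 14.1% and 24.7%). The 4 arrays of zone III all lay below the 4 of zone I for 22 members and all above for 1, where 22.7% of all genes did the first and 22.8% the second. The 3 fluidics runs gave the same sign for 32 of 35 members in zone III minus zone I, 32 in zone II minus zone I and 20 in zone III minus zone II, and for every called member. The runs hold the same arrays that gave the calls, so this is no separate test of them. The share over all genes is not given here.

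The step from zone II to zone III depended most on how the arrays were scaled. With arrays centred on 41 ribosomal protein probe sets the medians of all tested genes moved to -0.39, 0.58 and 0.19. Those of the members moved to -0.75, 0.41 and -0.35, so that the sign of the members' median turned between zones II and III. This centring takes the ribosomal protein genes as unchanged between zones, which was not tested. On the deposited scale these probe sets were lower in zone III than in zone II, which moved all other genes up at that step. Median centring moved the medians of all genes to 0.04, -0.14 and -0.10. Relative to the median of all genes the members lay at -0.36, -0.17 and -0.54 on the deposited scale. Centring moves all genes of an array alike and so cannot change these relative values. After quantile normalization they were -0.31, -0.31 and -0.57. The split of lower and higher members between zones II and III was 14 and 3 after quantile normalization, 12 and 3 after median centring and 3 and 13 after ribosomal centring, beside 9 and 5. Between zones I and II it was 24 lower and 0 higher after ribosomal centring, beside 17 and 3, and between zones I and III 15 lower and 1 higher, beside 21 and 1.

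**Figure D2:**
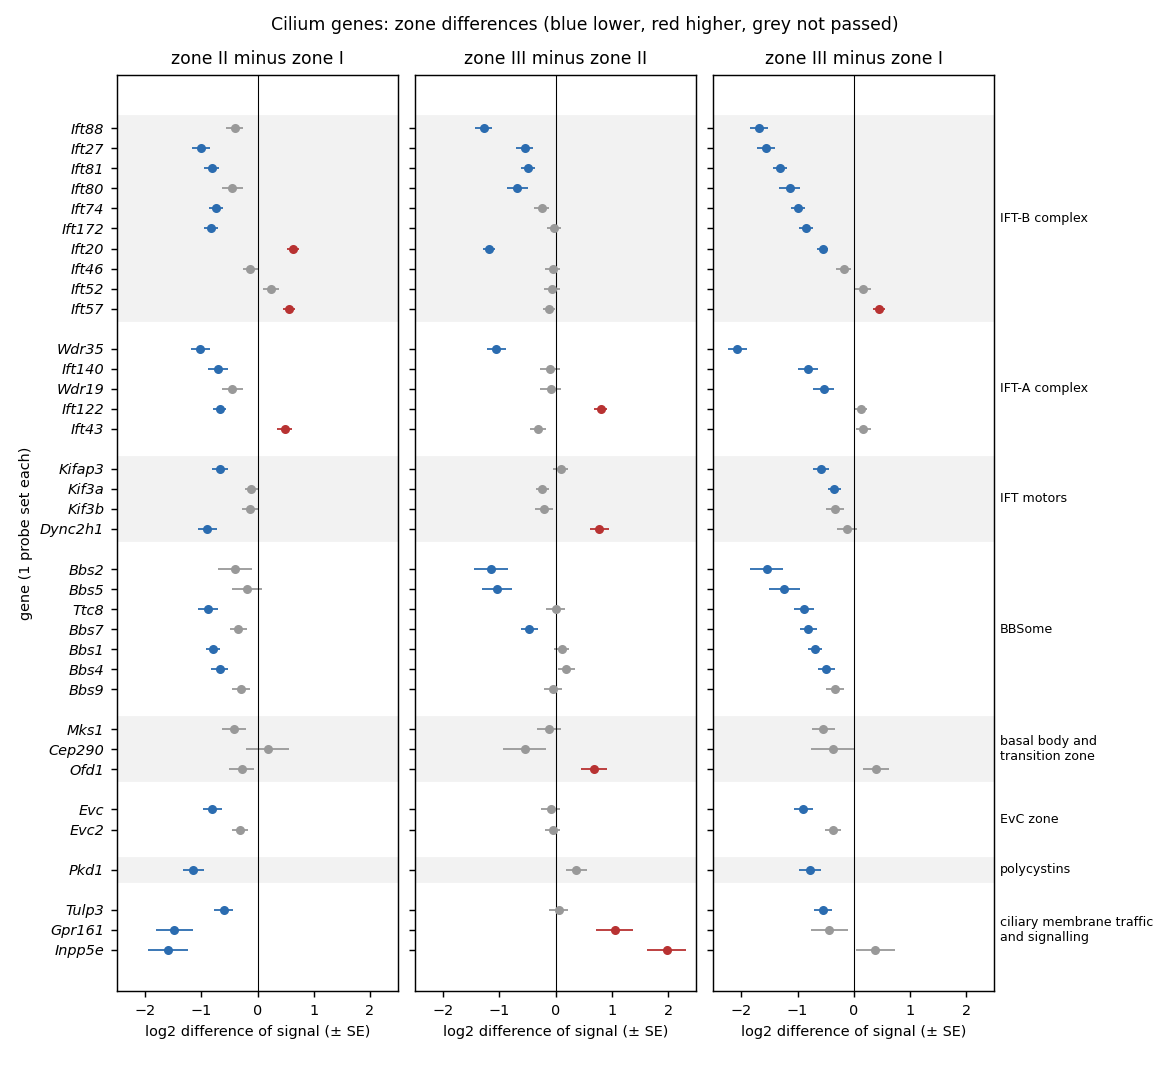
Dots give the log2 difference of signal of each of the 35 tested cilium genes between pairs of zones (± SE, 4 arrays per zone), grouped by role, blue where lower and red where higher at an adjusted p under 0.05 and grey otherwise. In zone III minus zone I the dots reach -2.07 for Wdr35 and 0.44 for Ift57, and in zone III minus zone II Inpp5e reaches 1.97. In the latter the called members Ift81 and Bbs7, and uncalled members with small negative differences, turned sign under ribosomal centring.

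In order of their mean signals, 20 members were highest in zone I, intermediate in zone II and lowest in zone III, an order shown by 15.2% of all tested genes. The order zone I, zone III, zone II was seen for 7 members and 15.9% of all genes. Cep290 and Ift20 were highest in zone II and lowest in zone III. Ift43, Ift52 and Ift57 were highest in zone II and lowest in zone I. Ift122, Inpp5e and Ofd1 were highest in zone III and lowest in zone II, and 0 members followed the order zone III, zone II, zone I, which 13.1% of all genes did. These orders are of means, and many neighbouring zones in them did not differ at the threshold.

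IFT-B, which carries cargo such as tubulin towards the tip, had all 10 of its members tested. Between zones I and III 7 were lower and 1 higher (all genes 21.7% and 21.6%). Between zones I and II 4 were lower and 2 higher (all genes 25.4% and 16%). Between zones II and III 5 were lower and 0 higher (all genes 22.7% and 30.8%). Ift88, the core subunit whose loss shortens or removes cilia in the mouse, had signals of 407, 451, 473 and 567 on the zone I arrays, 302, 337, 380 and 413 in zone II and 121, 168, 135 and 167 in zone III. The zone III arrays were all below the others, while those of zones I and II overlapped. Its log2 difference was -0.41 ± 0.15 (SE) from zone I to zone II (adjusted p = 0.0538), which passed without zone I array A (-0.48, adjusted p = 0.0424), zone II array D (-0.48, adjusted p = 0.039) or zone III array A (-0.41, adjusted p = 0.0497), and -1.28 ± 0.15 from zone II to zone III (adjusted p = 2.06e-05).

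Ift27, a Rab-like GTPase of IFT-B that helps the BBSome out of the cilium, had signals of 170, 224, 178 and 147 in zone I, 90.3, 70.8, 99.0 and 95.8 in zone II and 58.8, 51.8, 61.7 and 69.7 in zone III. No 2 zones overlapped. From zone I to zone II the log2 difference was -1.01 ± 0.16 (adjusted p = 0.000312) and from zone II to zone III -0.55 ± 0.16 (adjusted p = 0.0104). The second of these was -0.05 after ribosomal centring (adjusted p = 0.826). Of the other 2 probe sets of the gene, both were lower in zone III than in zone I, with log2 differences of -1.14 and -0.99. For zone III minus zone II they gave 0.05 (adjusted p = 0.883) and -0.46 (adjusted p = 0.0247).

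Ift81 and Ift74 form the pair of IFT-B subunits that bind tubulin. Ift81 had signals of 634, 660, 645 and 771 in zone I, 327, 461, 384 and 373 in zone II and 259, 244, 297 and 292 in zone III. Each zone lay wholly below the one before. Its log2 difference was -0.82 ± 0.13 for zone II minus zone I (adjusted p = 0.000346) and -0.49 ± 0.13 for zone III minus zone II (adjusted p = 0.00632), the latter turning to 0.01 after ribosomal centring (adjusted p = 0.975). As the median of the gene's probe sets that step was -0.35 (adjusted p = 0.0839), and the second tested probe set gave -0.35 (adjusted p = 0.0821). Ift74 had signals of 338, 368, 389 and 427 in zone I, 202, 279, 219 and 213 in zone II and 195, 175, 212 and 181 in zone III. Zones II and III overlapped and both lay below zone I. The log2 difference of Ift74 was -0.74 ± 0.13 for zone II minus zone I (adjusted p = 0.000715), -0.25 ± 0.13 for zone III minus zone II (adjusted p = 0.125) and -0.996 ± 0.13 for zone III minus zone I (adjusted p = 5.75e-05).

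Ift172, a large peripheral subunit of IFT-B, had signals of 133, 146, 140 and 126 in zone I, 67.2, 65.7, 90.3 and 85.9 in zone II and 71.9, 70.9, 76.4 and 81.1 in zone III. It fell once, between zones I and II, and zone III lay within the range of zone II. Its log2 difference was -0.83 ± 0.13 for zone II minus zone I (adjusted p = 0.00028) and -0.03 ± 0.13 for zone III minus zone II (adjusted p = 0.865). Ift80 is mutated in a thoracic dystrophy with short ribs. Its signals were 176 to 266 in zone I, 130 to 195 in zone II and 81.4 to 115 in zone III, with a log2 difference of -0.45 ± 0.19 for zone II minus zone I (adjusted p = 0.077) and -0.69 ± 0.19 for zone III minus zone II (adjusted p = 0.00874). The first passed without zone I array B (-0.55, adjusted p = 0.0498) or zone II array B (-0.56, adjusted p = 0.0444). The second was -0.19 after ribosomal centring (adjusted p = 0.412) and -0.38 as the median of the gene's 2 probe sets (adjusted p = 0.0708). The second probe set gave -0.52 for zone II minus zone I (adjusted p = 0.0318) and -0.08 for zone III minus zone II (adjusted p = 0.737), so the probe sets disagreed on which step was the larger.

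Ift20, the small IFT-B subunit that also works at the Golgi in sorting membrane proteins to the cilium, was highest in zone II. Its signals were 571, 550, 579 and 577 in zone I, 873, 962, 895 and 800 in zone II and 371, 439, 391 and 351 in zone III. Zone II stood above both other zones on every array and zone III below both. The log2 difference was 0.63 ± 0.10 for zone II minus zone I (adjusted p = 0.000502) and -1.19 ± 0.10 for zone III minus zone II (adjusted p = 1.55e-06), the smallest adjusted p of any member in that comparison. After ribosomal centring the first was 0.33 (adjusted p = 0.0883), and the difference of zone III minus zone I, -0.56, became -0.36 (adjusted p = 0.073).

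Ift57, a peripheral subunit whose promoter window held both arms of the X-box, was the sole member higher in zone III than in zone I. Its signals were 402 to 502 in zone I, 618 to 674 in zone II and 573 to 650 in zone III. The log2 difference was 0.56 ± 0.10 for zone II minus zone I (adjusted p = 0.00123) and 0.44 ± 0.10 for zone III minus zone I (adjusted p = 0.00488). The first was 0.26 after ribosomal centring (adjusted p = 0.227), the second 0.34 after median centring (adjusted p = 0.0864), and as the median of 2 probe sets, 1 of them dim, they were 0.30 (adjusted p = 0.128) and 0.21 (adjusted p = 0.275). The remaining core subunits, Ift46 and Ift52, passed in no comparison. Ift46 had mean signals of 877 ± 67.8 (SD, n = 4), 807 ± 123 and 774 ± 87.6 from zone I to zone III, and Ift52 had 170 ± 14.95, 202 ± 33.1 and 191 ± 26.1. From zone I to zone III the IFT-B subunits thus ranged from a log2 difference of -1.69 for Ift88 to 0.44 for Ift57.

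**Figure D3:**
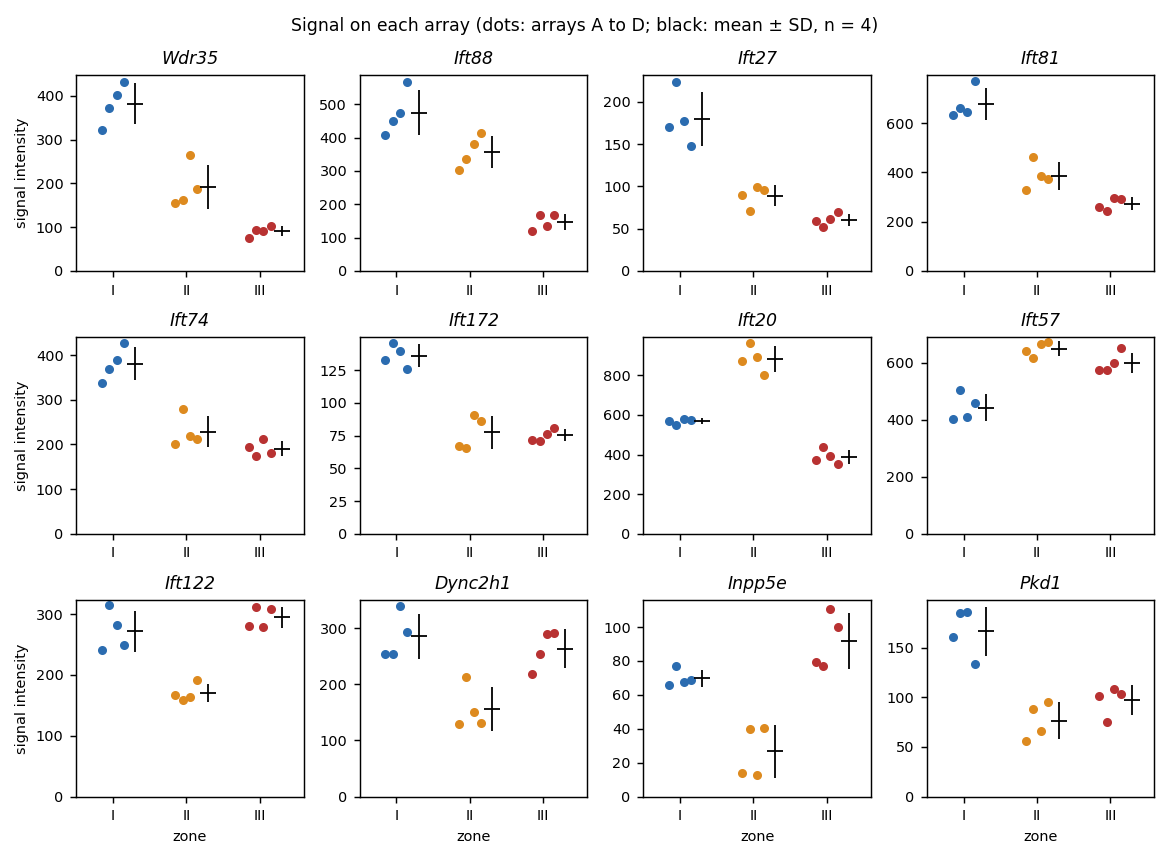
Dots give the signal of 12 cilium genes on each array, by zone, with the mean and SD of the 4 arrays in black, on linear axes that start at 0. Wdr35 drops from 323 to 431 in zone I to 76.4 to 103 in zone III, Ift20 peaks in zone II at 800 to 962, and Inpp5e is lowest in zone II at 12.8 to 40.6.

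IFT-A brings trains back to the base and escorts receptors into the cilium. Its 5 members gave 3 lower and 1 higher call between zones I and II (all genes 25.4% and 16%). Between zones II and III they gave 1 of each (all genes 22.7% and 30.8%), where 1 lower of 5 (20%) was near the share of all genes. Between zones I and III 3 were lower and 0 higher (all genes 21.7% and 21.6%). Wdr35, a peripheral subunit also known as IFT121, had the largest difference of any member between zones I and III. Its signals were 323, 373, 403 and 431 in zone I, 155, 163, 265 and 187 in zone II and 76.4, 92.5, 92.2 and 103 in zone III. No 2 zones overlapped. The log2 difference was -1.02 ± 0.17 for zone II minus zone I (adjusted p = 0.000628), -1.05 ± 0.17 for zone III minus zone II (adjusted p = 0.000265) and -2.07 ± 0.17 for zone III minus zone I (adjusted p = 1.44e-06), a 4.20-fold difference. A second, dimmer probe set of the gene gave -0.94, -1.10 and -2.04.

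Ift122, a subunit of the IFT-A core, dipped in zone II. Its signals were 241, 315, 281 and 249 in zone I, 167, 159, 163 and 191 in zone II and 280, 312, 279 and 308 in zone III. Zone II lay below both other zones on every array, and zones I and III overlapped. Differences on the log2 scale were -0.67 ± 0.12 for zone II minus zone I (adjusted p = 0.000677), 0.80 ± 0.12 for zone III minus zone II (adjusted p = 0.000101) and 0.12 ± 0.12 for zone III minus zone I (adjusted p = 0.427). Its second probe set, much dimmer, gave -0.27 and 0.23 for the steps and passed in neither.

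Ift140 and Wdr19, the other core subunits, were lower in zone III than in zone I. Ift140 had signals of 158 to 292 in zone I, 110 to 134 in zone II and 94.7 to 124 in zone III, with a log2 difference of -0.70 ± 0.18 for zone II minus zone I (adjusted p = 0.0086) and -0.81 ± 0.18 for zone III minus zone I (adjusted p = 0.00324). The first was -0.57 after median centring (adjusted p = 0.0659) and the second -0.61 after ribosomal centring (adjusted p = 0.058). Wdr19 had mean signals of 129 ± 17.7, 95.2 ± 15.2 and 90.6 ± 20.1, and its difference of -0.54 ± 0.18 for zone III minus zone I (adjusted p = 0.0344) did not pass without zone III array A (-0.36, adjusted p = 0.0949) or C (-0.57, adjusted p = 0.0511), or zone I array C (-0.47, adjusted p = 0.091) or D (-0.49, adjusted p = 0.082). Nor did it pass after ribosomal centring (-0.34, adjusted p = 0.282) or with no filter (adjusted p = 0.0899). Its difference of -0.45 for zone II minus zone I (adjusted p = 0.0746) passed without zone II array C (-0.54, adjusted p = 0.0486) or zone III array A (-0.45, adjusted p = 0.0316).

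Ift43, the smallest IFT-A subunit, was higher in zone II than in zone I. Its mean signals were 413 ± 48.7, 578 ± 89.9 and 461 ± 33.8, with overlapping arrays, and a log2 difference of 0.48 ± 0.13 for zone II minus zone I (adjusted p = 0.0142) that was 0.18 after ribosomal centring (adjusted p = 0.477). The difference of -0.32 for zone III minus zone II (adjusted p = 0.0704) passed without zone II array B (-0.42, adjusted p = 0.0163).

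The IFT motors drive the trains. The kinesin consists of the motor subunits Kif3a and Kif3b and the accessory subunit Kifap3, and Dync2h1 is the heavy chain of the returning dynein. Of the 4 genes, Kifap3 and Dync2h1 were lower in zone II than in zone I, Dync2h1 was higher in zone III than in zone II, and Kifap3 and Kif3a were lower in zone III than in zone I. Dync2h1 had signals of 255, 255, 339 and 294 in zone I, 129, 214, 150 and 132 in zone II and 218, 254, 290 and 292 in zone III. As with Ift122, zone II was lowest on every array. Its log2 difference was -0.89 ± 0.17 for zone II minus zone I (adjusted p = 0.00165), 0.77 ± 0.17 for zone III minus zone II (adjusted p = 0.00265) and -0.12 ± 0.17 for zone III minus zone I (adjusted p = 0.629).

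Kifap3 had signals of 587 to 836 in zone I, 401 to 493 in zone II and 424 to 506 in zone III, with a log2 difference of -0.67 ± 0.14 for zone II minus zone I (adjusted p = 0.00237) and -0.59 ± 0.14 for zone III minus zone I (adjusted p = 0.00488). Kif3a had mean signals of 254 ± 34.7, 234 ± 13.9 and 198 ± 14.3 and a log2 difference of -0.35 ± 0.12 for zone III minus zone I (adjusted p = 0.0297). This call did not pass without zone I array C (-0.36, adjusted p = 0.0526) or D (-0.26, adjusted p = 0.0811), or zone III array A (-0.30, adjusted p = 0.0861), B (-0.36, adjusted p = 0.0544) or D (-0.35, adjusted p = 0.0623), and it was -0.15 after ribosomal centring (adjusted p = 0.5). With no filter its adjusted p was 0.0897. The 3 other probe sets of Kif3a gave -0.30, -0.44 and -0.36 for zone III minus zone I and did not pass. For zone II minus zone I 2 of them were lower, at -1.03 (adjusted p = 0.00242) and -0.58 (adjusted p = 0.00958), and the first of these was higher in zone III than in zone II at 0.58 (adjusted p = 0.0376), so the probe sets of this gene disagreed. Kif3b had mean signals of 109 ± 23.1, 98.0 ± 7.13 and 84.97 ± 10.2 and passed in no comparison. Without zone I array A zone III was lower than zone I (-0.45, adjusted p = 0.0327). A second tested probe set of similar brightness gave 0.12 for zone III minus zone I (adjusted p = 0.442) and 0.01 for zone II minus zone I (adjusted p = 0.964).

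The BBSome is a coat of Bardet-Biedl syndrome proteins that rides on IFT trains. Its 7 members gave 3 lower calls between zones I and II, 3 between zones II and III and 6 between zones I and III. It had 0 higher calls in any comparison. Of all genes 25.4%, 22.7% and 21.7% were lower and 16%, 30.8% and 21.6% higher in these comparisons. The calls of the steps fell on different subunits. Bbs1, Bbs4 and Ttc8 were lower in zone II than in zone I and Bbs2, Bbs5 and Bbs7 were lower in zone III than in zone II. The difference between these subunits was not tested.

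Ttc8, the BBS8 subunit, had signals of 232 to 331 in zone I, 107 to 183 in zone II and 127 to 167 in zone III, with a log2 difference of -0.88 ± 0.17 for zone II minus zone I (adjusted p = 0.00183) and 0.00 for the next step (adjusted p = 0.994). Bbs1, which the small GTPase Arl6 recruits to membranes, had signals of 126 to 150, 72.4 to 96.1 and 77.6 to 103, with a log2 difference of -0.79 ± 0.13 for zone II minus zone I (adjusted p = 0.000444) and -0.69 ± 0.13 for zone III minus zone I (adjusted p = 0.000976). Both thus held their lower level from zone II on. Bbs4 had signals of 76.1 to 121, 57.8 to 74.0 and 64.2 to 81.6, with a log2 difference of -0.68 ± 0.15 for zone II minus zone I (adjusted p = 0.00366), but its other 2 tested probe sets gave -0.33 and -0.06 and did not pass. Its difference of -0.49 ± 0.15 for zone III minus zone I (adjusted p = 0.0205) did not pass without zone I array C (-0.46, adjusted p = 0.0517) or D (-0.40, adjusted p = 0.0614) or zone III array A (-0.44, adjusted p = 0.0603), after ribosomal centring (-0.29, adjusted p = 0.215) or with no filter (adjusted p = 0.0624).

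Bbs2 had signals of 49.7 to 90.6 in zone I, 37.3 to 71.4 in zone II and 15.8 to 38.7 in zone III, with a log2 difference of -1.15 ± 0.30 for zone III minus zone II (adjusted p = 0.00633) and -1.55 ± 0.30 for zone III minus zone I (adjusted p = 0.0012). Bbs5, the subunit that binds phosphoinositides, had signals of 115 to 172, 79.1 to 179 and 36.3 to 70.6, with a log2 difference of -1.05 ± 0.27 for zone III minus zone II (adjusted p = 0.00674). The zone III arrays of Bbs5 were all below those of the other zones. After ribosomal centring these steps were -0.65 for Bbs2 (adjusted p = 0.0781) and -0.55 for Bbs5 (adjusted p = 0.0854). Bbs7, whose promoter held the X-box match shown above, had signals of 121 to 158, 86.2 to 119 and 62.7 to 93.7 and a log2 difference of -0.81 ± 0.16 for zone III minus zone I (adjusted p = 0.00121). Its step of -0.47 ± 0.16 for zone III minus zone II (adjusted p = 0.0242), which turned to 0.03 after ribosomal centring (adjusted p = 0.894), did not pass without zone II array B (-0.44, adjusted p = 0.0559), C (-0.44, adjusted p = 0.0563) or D (-0.42, adjusted p = 0.0627) or zone III array A (-0.37, adjusted p = 0.078) or C (-0.44, adjusted p = 0.0596).

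Bbs9 was the BBSome subunit that passed in no comparison, with mean signals of 108 ± 26.5, 86.5 ± 6.99 and 84.0 ± 7.02. Without zone I array B it was lower in zone II (-0.43, adjusted p = 0.0387) and in zone III (-0.47, adjusted p = 0.0232) than in zone I.

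At the base of the cilium, the basal body and transition zone members gave a single call. Ofd1, a protein of the distal centriole, had signals of 59.9 to 89.1 in zone I, 41.4 to 77.2 in zone II and 69.3 to 115 in zone III. The arrays of zones II and III overlapped, and the log2 difference between them was 0.68 ± 0.23 (adjusted p = 0.0246). It was 0.43 after quantile normalization (adjusted p = 0.148), 0.45 after median centring (adjusted p = 0.152), 0.62 once the fluidics run was blocked (adjusted p = 0.0507), and it did not pass without zone II array A (0.64, adjusted p = 0.0546) or B (0.49, adjusted p = 0.0729) or zone III array B (0.60, adjusted p = 0.0695) or D (0.60, adjusted p = 0.0701). Cep290, which links the axoneme to the membrane at the transition zone, had mean signals of 95.7 ± 51.6, 99.97 ± 37.3 and 65.7 ± 12.5 and passed in no comparison. Mks1, a transition zone gene of Meckel syndrome with an X-box match, had 51.7 ± 6.14, 38.4 ± 3.20 and 36.9 ± 12.5. Mks1 entered the test through zone I alone, and zone III was lower than zone I at -0.54 ± 0.21 (adjusted p = 0.0563), which passed without zone I array D (-0.63, adjusted p = 0.0464) or zone III array B (-0.65, adjusted p = 0.0366) or C (-0.71, adjusted p = 0.0145).

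Evc and Evc2 form a pair at the ciliary base that relays hedgehog signals from Smo, and their loss causes Ellis-van Creveld syndrome, a chondrodysplasia. Evc had signals of 120 to 143 in zone I, 55.1 to 102 in zone II and 66.8 to 80.9 in zone III. All arrays of zones II and III lay below zone I, with a log2 difference of -0.81 ± 0.16 for zone II minus zone I (adjusted p = 0.0022) and -0.90 ± 0.16 for zone III minus zone I (adjusted p = 0.000885). Evc2 had mean signals of 249 ± 29.6, 201 ± 22.0 and 194 ± 26.4 and did not pass; its difference of -0.37 ± 0.14 for zone III minus zone I (adjusted p = 0.0516) passed without zone I array A (-0.44, adjusted p = 0.0352) or zone II array A (-0.37, adjusted p = 0.0476). Pkd1, the large membrane protein of polycystic kidney disease that serves as a mechanosensor in bone cells, had signals of 133 to 186, 55.9 to 94.8 and 74.9 to 108. Its log2 difference was -1.14 ± 0.19 for zone II minus zone I (adjusted p = 0.00054) and -0.78 ± 0.19 for zone III minus zone I (adjusted p = 0.00583).

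The 3 tested genes of ciliary membrane traffic were all lower in zone II than in zone I, against 25.4% of all genes. In zone III 2 of them, Inpp5e and Gpr161, were higher than in zone II, against 30.8% of all genes. Gpr161 entered the test through zone I alone, where it was high, with means of 26.2 and 48.2 in zones II and III. The second probe set of Inpp5e did not pass for the fall. Inpp5e, the inositol phosphatase that sets the lipid composition of the ciliary membrane, had signals of 66.0, 77.2, 67.4 and 68.6 in zone I, 13.7, 40.0, 12.8 and 40.6 in zone II and 79.4, 77.1, 111 and 100.01 in zone III. Zone II was lowest on every array, while zones I and III overlapped. The log2 difference was -1.59 ± 0.35 for zone II minus zone I (adjusted p = 0.00341), the largest fall of any member at that step, and 1.97 ± 0.35 for zone III minus zone II (adjusted p = 0.000482). Its second probe set gave -0.30, which did not pass (adjusted p = 0.537), and 1.04 (adjusted p = 0.0254).

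Gpr161, a ciliary receptor that restrains hedgehog signalling, had signals of 63.3 to 69.6 in zone I, 9.16 to 35.1 in zone II and 45.7 to 50.7 in zone III. The 3 ranges did not overlap, and the gene entered the test through zone I alone. Gpr161 had log2 differences of -1.49 ± 0.33 for zone II minus zone I (adjusted p = 0.00364) and 1.05 ± 0.33 for zone III minus zone II (adjusted p = 0.0183), the latter 0.82 after quantile normalization (adjusted p = 0.0787) and 0.82 after median centring (adjusted p = 0.0635). Without zone II array B, its lowest, the step from zone II to zone III was 0.60 (adjusted p = 0.000743), and zone III was lower than zone I by -0.44 (adjusted p = 0.00419), which had not passed with it. Tulp3, the adaptor through which IFT-A brings Gpr161 into the cilium, had signals of 385 to 549, 224 to 358 and 274 to 338. Its log2 difference was -0.60 ± 0.17 for zone II minus zone I (adjusted p = 0.0133), or -0.47 after median centring (adjusted p = 0.0928), and -0.55 ± 0.17 for zone III minus zone I (adjusted p = 0.0195), which did not pass without zone I array B (-0.44, adjusted p = 0.0557) or zone III array D (-0.51, adjusted p = 0.054), after ribosomal centring (-0.35, adjusted p = 0.171) or with no filter (adjusted p = 0.0583).

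Further ciliary genes outside the 38 were counted in the same way. Of all tested genes 25.4% were lower and 16% higher in zone II than in zone I. The shares were 22.7% and 30.8% from zone II to zone III, and 21.7% and 21.6% between zones I and III. Of 17 other genes of IFT, its motors and the BBSome, 8 (47.1%) were lower and 3 (17.6%) higher in zone II than in zone I. The share of higher calls was near that of all genes. In zone III 8 (47.1%) were lower and 0 higher than in zone II, and 11 (64.7%) lower and 0 higher than in zone I. The IFT-B subunits Ttc30b (-1.76 ± 0.21 on the log2 scale), Hspb11 (-1.45 ± 0.16) and Cluap1 (-1.21 ± 0.15) and the dynein chain Wdr34 (-1.37 ± 0.19) had the largest differences of zone III minus zone I. Hspb11 was, on average, highest in zone II like Ift20, with mean signals of 1186, 1713 and 432. Unlike those of Ift20, its arrays of zones I (970 to 1353) and II (1311 to 2230) overlapped. In fluidics run 3 its zone II minus zone I difference was -0.05. Lztfl1, which regulates the BBSome, had 1163, 1568 and 681 and was higher in zone II than in zone I by 0.44 ± 0.13.

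Of 23 tested further genes of the basal body and transition zone, 13 (56.5%) were lower in zone II than in zone I. In zone III 14 (60.9%) were lower than in zone I, and both comparisons held 0 higher. Of all genes 25.4% and 21.7% were lower. Between zones II and III 5 (21.7%) were lower, near the 22.7% of all genes. There 3 (13%) were higher (Fbf1, Cep164 and B9d2), against 30.8% of all genes. The largest differences of zone III minus zone I were those of the transition zone genes Tmem216 (-1.47 ± 0.20), Tmem237 (-1.26 ± 0.11) and Tmem231 (-1.21 ± 0.23) and of Sclt1 (-1.19 ± 0.17), which anchors the centriole to the membrane. The 3 tested members at the cilium's base gave 0 lower calls in any comparison beside these; the difference between the lists was not tested. Of 12 GTPases and carriers of lipid-linked ciliary cargo, 5 (41.7%) were lower and 1 (8.33%), Rab8b, higher in zone III than in zone I. Of all genes 21.7% were lower and 21.6% higher there. Rab8b dipped in zone II, with mean signals of 435, 233 and 673.

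**Figure D4:**
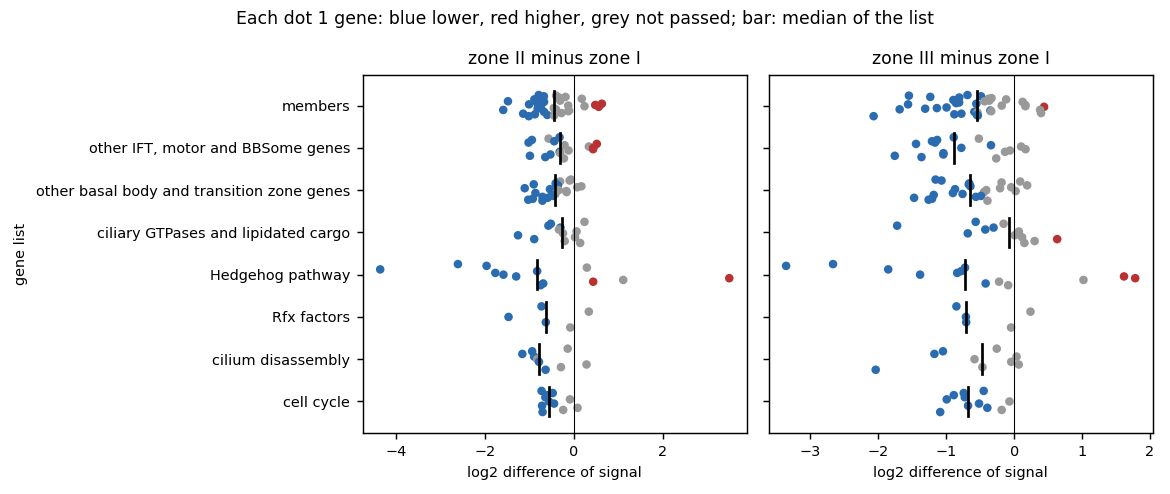
Each dot gives the log2 difference of signal of 1 tested gene, for zone II minus zone I (left) and zone III minus zone I (right), in the members and 7 related lists, blue where lower, red where higher and grey where not passed at an adjusted p under 0.05, with a bar at the list's median. The medians of zone III minus zone I are -0.55 for the members, -0.89 for the other IFT, motor and BBSome genes and -0.72 for the Hedgehog pathway, in which Ihh stands at 1.78.

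The hedgehog pathway reads its ligand at the cilium. Of its 13 tested genes 9 (69.2%) were lower and 2 (15.4%) higher in zone II than in zone I. Of all genes 25.4% and 16% were. Between zones I and III 8 (61.5%) were lower and 2 (15.4%) higher (all genes 21.7% and 21.6%). Ihh, the ligand of the growth plate, had mean signals of 61.4, 696 and 212. Its receptor and target Ptch1 had 1770, 2382 and 1508, a log2 difference of 0.43 ± 0.11 for zone II minus zone I. Gli1, which is also a target, had 145, 81.2 and 83.9, and the transducer Smo had 858, 532 and 636, with differences of -0.83 ± 0.11 and -0.69 ± 0.15 for the same step. The co-receptors Gas1 (-4.37 ± 0.51), Boc (-2.61 ± 0.20) and Cdon (-1.97 ± 0.12) and the effector Gli2 (-1.77 ± 0.21) had the largest falls there. Hhip, a target that binds the ligand, averaged 33.4 on the arrays of zone I and 99.7 on those of zone III, while its zone II signals of 4.28 to 27.4 overlapped those of zone I. It had log2 differences of -1.30 ± 0.44 for zone II minus zone I (adjusted p = 0.0353) and 2.92 ± 0.44 for zone III minus zone II. Hhip entered the test through zone III alone, and its signals in zones I and II were all under 50. Among these targets Ptch1 was thus higher in zone II than in zone I and Gli1 lower. The lower call of Hhip rests on overlapping arrays under that limit.

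Of the Rfx factors, 5 of 6 were tested. Rfx3, a regulator of ciliary genes, had mean signals of 122, 44.4 and 73.5, with a log2 difference of -1.47 ± 0.19 for zone II minus zone I (adjusted p = 8.68e-05) and 0.76 ± 0.19 for zone III minus zone II (adjusted p = 0.0053). Rfx1 had 165, 100.2 and 91.7 and Rfx5 had 338, 220 and 206, and both were lower in zones II and III than in zone I, by -0.73 ± 0.19 and -0.63 ± 0.16 in zone II. Rfx2 (41.9, 52.9 and 48.9) and Rfx7 (530, 508 and 513) passed in no comparison. Rfx4 and Foxj1, the master regulator of motile cilia, stayed under the limit with mean signals of at most 5.81 and 26.7 in any zone. A single perfect X-box arm was present in the windows of 10 of the 19 members lower in zone III than in zone I that had one, among them Wdr35, Ift88, Ift27, Ift140 and Ift172, and of 3 of the other 13 tested members. Both arms were present for 1 of those 19 (5.26%) and 2 of those 13 (15.4%). Over all genes the shares were 14.1% for a single arm and 0.936% for both. Neither split of the members was tested, nor any part of the Rfx factors in their differences.

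Genes of motile cilia were mostly dim: 4 of 16 (Dnai1, Hydin, Rsph1 and Rsph9) were tested, and the sum of all 16 signals was 409 to 489 in zone I, 449 to 514 in zone II and 314 to 344 in zone III. A list of 9 tested genes held genes of cilium disassembly, which removes the cilium before division, and also Ccp110, Cep97 and Tctex1d2. Ccp110 and Cep97 cap the centriole, and Tctex1d2 encodes a dynein light chain. Of the 9 genes 5 (55.6%) were lower in zone II than in zone I, against 25.4% of all genes. Hdac6 (228, 123 and 233) and Kif2a (344, 200 and 334) were higher again in zone III. For Aurka (271, 250 and 228), Plk1 (262, 231 and 188) and Nek2 (188, 227 and 197) the arrays of zones I and II overlapped. Of 11 cell cycle genes 8 (72.7%) were lower in zone II and 9 (81.8%) lower in zone III than in zone I. Of all genes 25.4% and 21.7% were. Top2a differed by -1.09 ± 0.14 in zone III. Cell cycle genes thus moved with the members, and their part in the members' differences was not tested.

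Markers of cell types also moved with the zones. Beside their calls, 25.4% of all genes were lower and 16% higher in zone II than in zone I. In zone III 22.7% were lower and 30.8% higher than in zone II, and 21.7% and 21.6% than in zone I. The 8 early chondrocyte markers summed to 15801 to 19724 in zone I, 22609 to 24809 in zone II and 5800 to 7695 in zone III. All 8 were lower in zone III than in zone II, a step at which 9 members were lower and 5 higher. Their sums rose from zone I to zone II, where 17 members were lower and 3 higher. The 4 hypertrophic markers summed to 307 to 501, 8753 to 9972 and 7897 to 9302, and the 5 osteoblast markers to 149 to 281, 3427 to 5048 and 7950 to 8891. The 6 osteoclast markers were all higher in zone III than in zone II, with sums of 618 to 729, 600.2 to 1560 and 11281 to 13519. Ocstamp and Calcr among them entered the test through zone III alone, where they were high. Early cartilage genes and bone-resorbing cell genes thus moved in opposite directions at the last step.

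Lists that, like Ift122, Dync2h1, Inpp5e and Gpr161, were lower in zone II than in zone I and higher again in zone III were also found. All 6 endothelial markers did both, with sums of 409 to 850, 164 to 353 and 1886 to 2102. Pecam1 and Tie1 among them entered the test through zone III alone, where they were high, with means under 50 in zones I and II. The 6 markers of perichondrium and fibrous tissue were all lower in zone II, and 4 were higher in zone III than in zone II, with sums of 5010 to 7256, 961 to 1760 and 3480 to 3794. The 5 macrophage markers summed to 911 to 1639, 508 to 803 and 4051 to 4857, of which Csf1r (577, 286 and 2749) was the largest part. Of these 5, 2 were lower in zone II than in zone I, and all 5 were higher in zone III than in zone II. In zone III 3 were higher and 1, Mrc1, lower than in zone I. Muscle markers summed to 362 to 1767, 194 to 690 and 192 to 520, and erythroid markers to 160 to 251, 69.3 to 355 and 230 to 397. Of the 4 markers of motile ciliated epithelium 1, Rsph1, was tested, and their sums were 85.8 to 105, 120 to 187 and 57.3 to 78.0. No marker was at 0, although Tie1 was at a mean of 1.62 in zone II and Dmp1 at 2.39 in zone I, and the part of any of these cell types in the members' differences was not tested.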

How the data were processed

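Signal intensities of the Affymetrix mouse expression array were used as deposited by the authors, on a linear scale with 1 value per probe set and array. GCRMA and RMA are both named in the study's methods, RMA alone in the notes of the submitters. Array medians ran from 32.4 to 43.3, whereas quantile normalization, part of GCRMA and RMA, makes them nearly equal, so the deposited values resemble neither. The sources used here do not give the algorithm behind them or how low signals were corrected for background. Of 45101 probe sets, 64 were controls, 34945 were named by 1 symbol, 932 by several and 9160 by none, from the platform annotation.

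Signals were taken to log2, and the 22255 probe sets whose mean reached 50 in some zone were fitted with limma 3.58.1 (lmFit and eBayes) in R 4.3.3 on all 12 arrays, with p adjusted by Benjamini-Hochberg within each of 3 comparisons. The script was tested on simulated data. Counts over all genes used the same 1 probe set per gene. Members and lists were chosen with earlier results of these data known. All members were named; those called at 1.5-fold or more were given with their ranges, those with the smallest adjusted p on every array, and of other lists the largest differences. Fluidics runs were taken as the arrays that share a hybridization time in the experiment records. Alternatives were other scalings, filters, blocks, a pseudocount of 16, other probe set choices and leaving out each array. The number of arrays, 4 per zone, limits the precision.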

Additional observations from a re-analysis of the deposited data

Results flagged for a closer look

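In 5 of 105 groups of 4 arrays (35 members in 3 zones, 4.76%) 1 array stood far from the other 3, with a gap to its neighbour above Dixon's critical share of the group's range; chance alone flags about 1 group in 20. Ift43 in zone I had 485 on array B, with the nearest array at 396. Ift140 in zone III had 94.7 on array A, with the nearest at 119. Bbs7 in zone II had 86.2 on array A, with the nearest at 113. Mks1 in zone I had 42.5 on array D, with the nearest at 54.2. Evc2 in zone III had 154 on array C, with the nearest at 204.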

How the results depend on the processing

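Centring on ribosomal protein genes takes those genes as unchanged between zones. It gave 0 higher members between zones I and II and 13 higher and 3 lower between zones II and III. Of the called members it turned the sign of Ift81 (0.0065) and Bbs7 (0.033) between zones II and III. It moved every gene of a comparison by the same amount. Members with small negative differences there that had not been called therefore turned sign as well. Between zones II and III, quantile normalization gave 14 lower and 3 higher members, median centring 3 higher, and a limit on the mean signal of 100 in place of 50 gave 2 higher. Between zones I and III median centring gave 0 higher members, and asking at least 1.5-fold gave 1 higher between zones I and II and 0 between zones I and III. The causes were not tested, except that the higher signal limit left fewer members to test. Leaving out 1 array at a time gave 17 to 19 lower and 3 to 3 higher members between zones I and II, 8 to 9 and 4 to 5 between zones II and III, and 18 to 23 and 1 to 1 between zones I and III; of 1260 values 23 lost and 17 gained a call. With no filter 17 members were lower between zones I and III. The array letters were not treated as litters: same-letter arrays correlated at -0.13 to 0.26 after zone means were removed, 8 of 12 pairs above 0.1, and 7 of 12 arrays correlated best with their own letter. With the replicate block, 19 members were lower and 3 higher between zones I and II, 9 and 5 between zones II and III, and 22 and 1 between zones I and III. Array signal, not read depth, sets the limit: Tmem67, Mks1, Gpr161, Inpp5e and Bbs2 had mean signals under 50 in at least 1 zone.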
